A study of Arabidopsis thaliana with 24 samples.

Results

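The response of wild-type (WT) Arabidopsis thaliana root tips to spectinomycin was measured in 6 of the 24 poly(A) RNA libraries of the series, 3 from seedlings on spectinomycin and 3 from seedlings on control medium, chosen by their labelled genotype and treatment. All 6 came from the Columbia strain, labelled Col. Seedlings of about 5 days had been put on solid medium with 10 mg/L spectinomycin, and their root tips of about 0.5 cm were collected after 16 h per the treatment protocol or 24 h per the series design, a difference that the labels do not settle. The control libraries carry the same protocol text and the treatment label control, and whether their seedlings were also moved to a fresh plate is not stated. The other 18 libraries came from 3 further genotypes. They were gun1-101, a mutant of the plastid signalling protein GUN1, nac103-11, a mutant of the transcription factor NAC103, and NAC103-OX, which carries 35S:NAC103-GFP. The 35S promoter drives that transgene in most cell types. These 18 libraries shared the fit, and so the estimate of spread behind the WT tests. They also served to ask where the WT response stood apart. Each genotype had 3 libraries on spectinomycin and 3 on control medium.

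Spectinomycin binds the bacterial type of ribosome found in plastids and stops the synthesis of the proteins that the plastid genome encodes. Plastids report such faults to the nucleus, a process called retrograde signalling, and in leaves of plants with damaged plastids the nuclear genes for photosynthesis are known to be turned down. Root tip plastids do not photosynthesise but make amino acids, fatty acids and hormone precursors, and reduce nitrite and sulfite. Roots also carry a chemical defence built from the amino acid tryptophan, which yields indole glucosinolates, camalexin and indole carbonyl nitriles.

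Library totals were 14568696 to 17060220 counts on spectinomycin and 13837480 to 17059082 counts on control medium. In the 6 libraries the first principal component, with 75.95% of the variance, separated spectinomycin from control. The second, with 9.649%, set control replicate 2 (score 29.58) apart from control replicates 1 (-11.71) and 3 (-15.47). Gene counts of control replicate 2 gave a chi-square per degree of freedom of 8.91 against replicate 1 and 9.02 against replicate 3, against 1.81 between replicates 1 and 3 and 2.43 to 4.43 between the spectinomycin libraries. Values without this library follow beside the results that moved most with it. The batch label has 1 value per group, so that batch and group cannot be told apart. The labels call the replicates biological but do not say whether they were separate plates or sowings. GUN1 (AT2G31400) had 140, 138 and 145 CPM (the counts of a gene scaled by TMM to a common library size) on spectinomycin and 150, 150 and 144 CPM on control medium, and its difference did not pass the test (log2 fold change -0.07 ± 0.046 SE, adjusted p = 0.225). NAC103 (AT5G64060) stayed under 1 CPM in all 6 libraries (a log2 fold change of -0.46 ± 0.32, adjusted p = 0.300). Both p-values, like those that follow, come from edgeR's quasi-likelihood test with Benjamini-Hochberg adjustment over the 19567 genes tested.

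All 9 stem cell niche markers, all 4 root cap markers, all 8 endodermis markers and all 8 root hair markers listed passed the filter for low counts. That filter was set over all 24 libraries and says little of the level in WT. Of 13 markers of shoot epidermis, stomata and leaves, 6 passed it. FMA, a regulator of guard cells, had 0 counts in each of the 6 WT libraries. SPCH, which starts the stomatal lineage, had 1 count in 1 spectinomycin library and 0 in the rest, and YAB3 had 4 to 7 counts in each. By level, the 6 shoot markers tested summed to 22.1 to 34.8 CPM over the WT libraries, and the 4 root cap markers to 10.6 to 16.9 CPM. Root identity was not tested with these values. In bulk tissue, fewer cells of a type and less RNA per cell cannot be told apart.

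Of the genes tested 40.6% differed between the groups, with 3939 higher (rose, 20.1%) and 4001 lower (fell, 20.4%) on spectinomycin. As batch and group cannot be told apart, these are differences between the groups. The 2 directions differed in size more than in number. At 2-fold or more, 208 genes rose (1.06% of genes tested) and 892 fell (4.56%). Many of these were low-level genes, with means under 5 CPM in both groups for 118 of the rises and 271 of the falls. At 4-fold or more, 17 rose and 367 fell, and at 16-fold or more 0 rose and 92 fell. Most of the other called changes were small, since 3101 of the genes that rose and 2377 of those that fell did so by less than 1.5-fold. The split of calls depended on scaling. With raw library sizes in place of TMM factors, 6542 genes rose and 2954 fell, and the median log2 fold change of all genes moved to 0.125, against 0.033 with TMM. The 3 spectinomycin and 3 control libraries did not overlap for 8966 genes (45.8%), including 7213 of the 7940 called. Summed, genes that fell at least 2-fold came to 2.87% of the nominal total of the CPM scale on spectinomycin and 9.42% on control medium. Genes that rose at least 2-fold came to 0.730% on spectinomycin and 0.308% on control medium. TMM-scaled CPM do not add up to that total exactly, so that these are not exact shares of the counts. Without control replicate 2, 351 genes rose at least 2-fold and 914 fell at least 2-fold, so that the number of 2-fold rises in particular rested on that library.

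**Figure D1:**
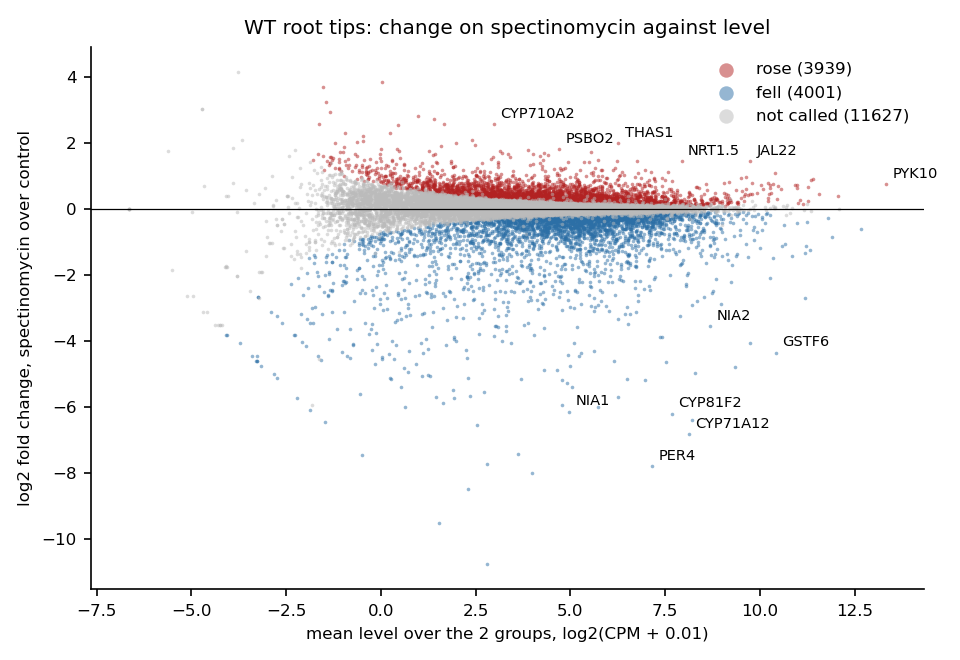
Log2 fold change of each tested gene in WT root tips (spectinomycin over control, y axis) against its mean level over both groups in log2(CPM + 0.01) (x axis), with genes that rose in red, genes that fell in blue and genes not called in grey. The 92 falls of at least 16-fold had a median level of 5.08 CPM on control medium and reach high-level genes such as CYP71A12 and CYP81F2. No rise reached 16-fold.

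Camalexin and the indole carbonyl nitriles are sulfur- and nitrogen-bearing antimicrobials made from tryptophan through indole-3-acetaldoxime. All 12 genes of this list fell, each by at least 2-fold, where 20.4% of all genes fell and 4.56% did so by 2-fold. Their groups did not overlap in any of the 12 (45.8% of all genes), and the list had a median log2 fold change of -4.42 against 0.03 over all genes tested. CYP71A12 (AT2G30750), a cytochrome P450 that turns indole-3-acetaldoxime into a nitrile, had 4.99, 4.86 and 5.00 CPM on spectinomycin and 538, 604 and 523 CPM on control medium. Its level was thus 112-fold lower on spectinomycin (a log2 fold change of -6.81 ± 0.074, adjusted p = 1.60e-45). Its near copy CYP71A18 had 3 counts over the 3 spectinomycin libraries and 658 over the 3 control libraries, a level 238-fold higher on control medium by counts, with an exact 95% interval (Clopper-Pearson, counting error only) of 81.1 to 1157. AT1G26380, a berberine-bridge-like oxidase of the carbonyl nitrile route, had 5.62, 7.09 and 7.95 CPM on spectinomycin and 547, 647 and 556 CPM on control medium (a log2 fold change of -6.39 ± 0.080, adjusted p = 2.19e-38). PAD3, the last enzyme of camalexin synthesis, was a low-level gene, with 1.89, 2.46 and 1.99 CPM on spectinomycin and 14.04, 7.86 and 10.8 CPM on control medium (a log2 fold change of -2.35 ± 0.19, adjusted p = 7.25e-11). GSTF6, a glutathione transferase tied to camalexin, averaged 129 ± 1.02 CPM on spectinomycin and 2630 ± 221 CPM on control medium (SD, n = 3 each; log2 fold change -4.35 ± 0.055, adjusted p = 4.64e-43). The fitted log2 fold change of CYP71A18 was -7.71 with all libraries and -8.59 without spectinomycin replicate 1, as 2 of its 3 counts on spectinomycin came from that library. CYP82C2, which hydroxylates the carbonyl nitrile, had 0.189, 0.0572 and 0.0537 CPM on spectinomycin and 5.19, 7.86 and 5.20 CPM on control medium (-5.88 ± 0.32, -6.60 without spectinomycin replicate 1). CYP71A12, CYP71A13 and CYP71A18 are close copies, and reads may have been shared between them.

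Indole glucosinolates leave the same precursor by another branch, and 14 of 21 genes fell, 5 rose and 2 were not called (median log2 fold change -0.98). The share that rose lay near the 20.1% over all genes, while 20.4% of all genes fell. CYP81F2 (AT5G57220), which adds a hydroxyl group at position 4 of the indole ring, had 5.24, 5.55 and 5.70 CPM on spectinomycin and 386, 462 and 363 CPM on control medium (a log2 fold change of -6.20 ± 0.086, adjusted p = 2.31e-34). IGMT2, a methyltransferase that acts after it, had 15.5, 14.5 and 13.3 CPM on spectinomycin and 344, 366 and 358 CPM on control medium (log2 fold change -4.63 ± 0.064). The regulator MYB51 fell (log2 fold change -2.17 ± 0.049), and so did PEN3, the exporter of the activated products (-1.49 ± 0.044), and the myrosinase PEN2 (-1.30). In the other direction, MYB34, another regulator of the same pathway, rose (log2 fold change 0.74 ± 0.062), as did CYP81F4 (0.61 ± 0.044) and IGMT5 (1.10 ± 0.054), which modify position 1 of the ring. PYK10, the abundant beta-glucosidase of root endoplasmic reticulum bodies, had 13130, 12800 and 12980 CPM on spectinomycin and 6951, 9566 and 6627 CPM on control medium (log2 fold change 0.75 ± 0.085, 0.93 without control replicate 2). The genes named here for substitution at position 4 were thus lower, and those for position 1 higher, on spectinomycin. IGMT1 and IGMT2 are close copies whose reads may be shared.

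Upstream of both branches, 5 of 6 tryptophan synthesis genes fell (median log2 fold change -1.63). TSA1, the alpha subunit of tryptophan synthase, had 82.5, 89.8 and 89.2 CPM on spectinomycin and 450, 394 and 474 CPM on control medium (log2 fold change -2.33 ± 0.061), and ASA1, the entry enzyme, fell too (-1.63). These enzymes work inside plastids. Aliphatic glucosinolates come from methionine instead, and 8 of 10 tested genes of that route fell by smaller amounts (median -0.89), among them SOT17 (-1.26 ± 0.080) and the regulator MYB28 (-0.91 ± 0.13). Sulfate uptake and assimilation feeds both routes, and 12 of 24 genes fell and 4 rose (median -0.45). SULTR1;2, the main sulfate importer of roots, had 293, 289 and 299 CPM on spectinomycin and 860, 858 and 835 CPM on control medium (log2 fold change -1.53 ± 0.042), and AKN2, an APS kinase, fell as well (-1.94 ± 0.061). AT3G13610, feruloyl-CoA 6-hydroxylase of the coumarin route, had 18.1, 20.5 and 19.4 CPM on spectinomycin and 636, 580 and 618 CPM on control medium (log2 fold change -4.98 ± 0.057). It was the lowest of 5 coumarin genes tested, of which 3 fell and 2 were not called (median -0.67). Only 1 of them, this gene, fell by at least 2-fold. Of 20 phenylpropanoid and flavonoid genes 8 fell and 4 rose, or 2 without control replicate 2, where 20.4% of all genes fell and 20.1% rose. PAL1, the entry enzyme, was among the falls (-1.56 ± 0.046).

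Promoters of the genes that fell were searched for the W-box, the core element bound by WRKY transcription factors, as TTGACC or TTGACT on either strand. The windows run from 250 bases before to 50 bases after the gene start in the RefSeq annotation of TAIR10.1, and the 2 forms do not overlap. A match was found in 33.5% of the 19428 promoters of tested genes, in 59.1% of those of genes that fell at least 2-fold and in 72.8% of those that fell at least 16-fold. It was found in 24.8% of those that rose at least 2-fold and in 31.5% of those not called. Windows with 2 or more matches made up 24.3% of the genes that fell at least 2-fold and 8.09% of all. The share differed between the gene lists in which most members fell. It was 66.7% for the camalexin and carbonyl nitrile genes and 64.0% for the pattern-triggered immunity genes described below. It did not exceed the 33.5% over all for the indole glucosinolate (33.3%), nitrogen (32.3%) and low-oxygen core genes (28.6%). The aliphatic glucosinolate and unfolded-protein genes had lower shares still. Among the 15 largest falls 7 had a match. CYP81F2 is shown for its 2 matches, the first bases at -194 and -109 from the start, and PROPEP3, the precursor of an immune elicitor peptide, for its 4, at -222, -198, -74 and -54. PROPEP3 was picked for print after its values were seen. Capitals mark each W-box, in either orientation, and both windows are on the plus strand, CYP81F2 at chr5:23187590-23187889 and PROPEP3 at chr5:25939312-25939611.
CYP81F2: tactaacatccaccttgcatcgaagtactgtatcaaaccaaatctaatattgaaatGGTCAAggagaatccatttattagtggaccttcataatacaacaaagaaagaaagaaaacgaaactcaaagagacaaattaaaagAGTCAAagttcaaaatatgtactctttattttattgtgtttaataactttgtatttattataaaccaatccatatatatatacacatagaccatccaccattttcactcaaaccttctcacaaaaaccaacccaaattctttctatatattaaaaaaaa
PROPEP3: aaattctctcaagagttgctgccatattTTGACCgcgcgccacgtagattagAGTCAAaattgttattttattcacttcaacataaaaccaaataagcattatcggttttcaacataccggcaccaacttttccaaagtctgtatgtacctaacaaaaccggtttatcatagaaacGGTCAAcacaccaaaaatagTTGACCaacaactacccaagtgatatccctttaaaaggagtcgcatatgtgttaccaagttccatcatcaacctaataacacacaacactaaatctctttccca
No match was found in the windows of PER4, CYP71A12 or NIA1. For CYP71A12 the annotated start is the first base of its coding sequence, so that its window may miss the true start. A match is a stretch of letters and does not show that a factor binds there.

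**Figure D2:**
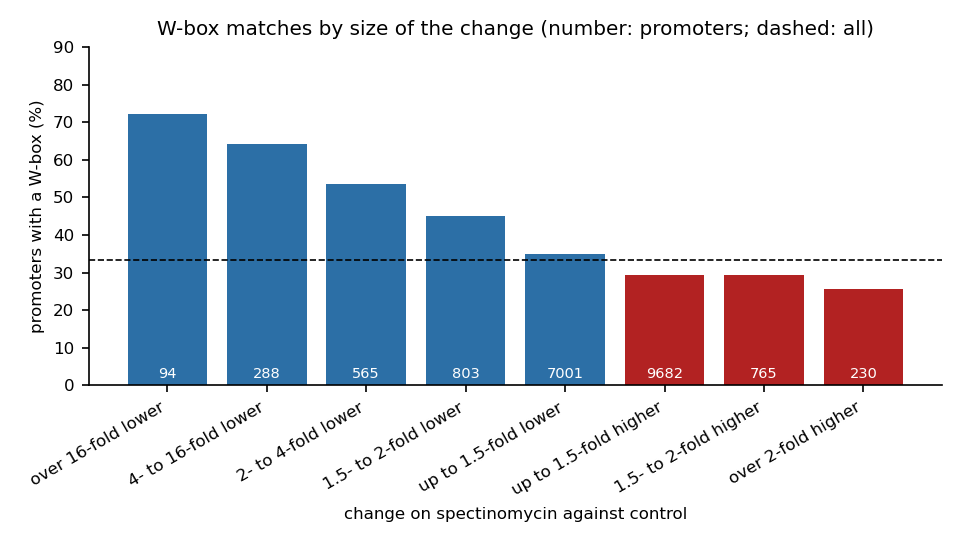
Share of promoters with a W-box (y axis, percent) for tested genes binned by their fold change on spectinomycin against control (x axis), with the number of promoters in each bar and the share over all tested genes as a dashed line. The share was 72.3% in genes over 16-fold lower, 53.6% in genes 2- to 4-fold lower, 35.0% in genes up to 1.5-fold lower and 25.7% in genes over 2-fold higher.

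Genes of the pattern-triggered immune system, which detects microbial molecules and the plant's own danger peptides, were lower almost throughout. Of 25 tested 23 fell and 0 rose, with a median log2 fold change of -1.12, where 20.4% of all genes fell and 20.1% rose. CBP60G, a calmodulin-binding activator of defence genes, had 1.64, 1.60 and 1.45 CPM on spectinomycin and 59.0, 79.9 and 55.9 CPM on control medium (a log2 fold change of -5.38 ± 0.15, adjusted p = 6.84e-20). PROPEP3 had 0.505, 1.09 and 0.537 CPM on spectinomycin and 23.6, 29.8 and 22.9 CPM on control medium (a log2 fold change of -5.15 ± 0.23, adjusted p = 1.88e-14). The receptor kinase FRK1, a common marker of this response, fell too (log2 fold change -2.76 ± 0.081). Receptors and their partners fell less, with BAK1 at -0.49, EFR at -0.38 and CERK1 at -0.67, and PEPR2 (-0.32) and LYK5 (0.05) were not called. All 7 respiratory burst oxidase genes, which make superoxide at the plasma membrane, fell (median -0.39), and RBOHD, the member used in immunity, had 34.9, 33.6 and 36.2 CPM on spectinomycin and 85.8, 111 and 85.9 CPM on control medium (log2 fold change -1.44 ± 0.072).

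The transcription factor families tied to the same responses moved mostly one way, where 20.4% of all genes fell and 20.1% rose. Of 55 WRKY genes tested, 33 fell and 5 rose (median log2 fold change -0.64). WRKY33, the activator of camalexin genes, had 34.3, 40.6 and 39.1 CPM on spectinomycin and 192, 220 and 205 CPM on control medium (log2 fold change -2.44 ± 0.071), and WRKY23, with a known role in root auxin responses, was among those that rose (0.79). Of 9 C2H2 zinc-finger repressor genes 8 fell (median -1.27), and STZ, a repressor induced by salt and reactive oxygen, had 19.1, 18.4 and 18.5 CPM on spectinomycin and 166, 179 and 168 CPM on control medium (log2 fold change -3.20 ± 0.080). Of 18 stress-related ERF genes 12 fell and ERF9 rose (0.56), with ERF6 at -2.95 ± 0.068. Of 20 cysteine-rich receptor-like kinase genes 13 fell and 0 rose (median -0.77). MYB15, an activator of lignin and coumarin genes in immunity, had 2.02, 2.57 and 2.26 CPM on spectinomycin and 56.4, 65.7 and 63.3 CPM on control medium (log2 fold change -4.75 ± 0.094). NAC042, a NAC factor that can activate camalexin genes, also fell (-4.87 ± 0.11). The 15 largest falls held 2 further genes of the cell membrane and its lipids. PLA2A, a patatin-like acyl hydrolase, had 4.36, 4.58 and 5.59 CPM on spectinomycin and 173, 177 and 172 CPM on control medium (-5.16 ± 0.075), and FLOT1, a flotillin of membrane microdomains, had 1.45, 1.49 and 1.93 CPM on spectinomycin and 43.8, 59.5 and 41.1 CPM on control medium (-4.88 ± 0.14).

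**Figure D3:**
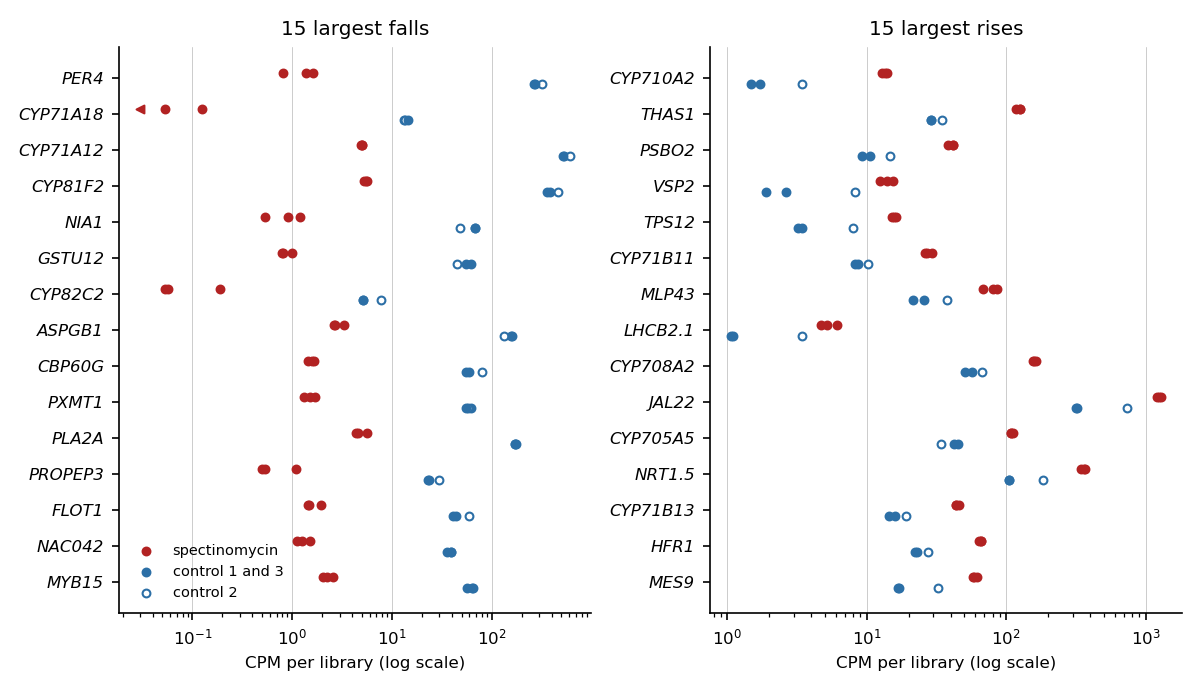
CPM per library on a log scale (x axis) for the 15 largest falls (left) and the 15 largest rises (right) among called genes with a symbol, at least 5 CPM and no overlap between groups. Red points are the 3 spectinomycin libraries, filled blue points control replicates 1 and 3, open blue points control replicate 2, and the left-pointing triangle marks 0 counts. In many of the rises, such as VSP2 and JAL22, control replicate 2 lies between the other control libraries and the spectinomycin libraries.

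Peroxidase and glutathione transferase genes followed in part. PER4 (AT1G14540), a class III peroxidase, had 0.821, 1.37 and 1.61 CPM on spectinomycin and 263, 320 and 272 CPM on control medium, a 220-fold lower level (a log2 fold change of -7.78 ± 0.10, adjusted p = 2.07e-36). The family as a whole was divided, with 26 of 59 members falling and 8 rising, where 20.4% of all genes fell and 20.1% rose. Its median of -0.09 lay at 0.01 with raw library sizes. AT5G39580, another peroxidase gene, had 49.4, 44.6 and 43.9 CPM on spectinomycin and 1249, 1250 and 1296 CPM on control medium (log2 fold change -4.78 ± 0.050). Of 34 tau and phi glutathione transferase genes 18 fell and 3 rose (median -0.38). GSTU12 had 1.01, 0.801 and 0.806 CPM on spectinomycin and 61.8, 45.4 and 54.8 CPM on control medium (log2 fold change -5.95 ± 0.14), and GSTU18 was among those that rose (1.296). The call of GSTU26, which was among the 3 at 0.24, was lost without control replicate 2 (0.07, adjusted p = 0.496), without spectinomycin replicate 1 (0.23, 0.0759) and without spectinomycin replicate 2 (0.22, 0.0952). Per length, in the deposited TPM, the mean level of GSTF6 was 241 on spectinomycin and 4696 on control medium, above that of CYP71A12 (5.36 and 567) and PER4 (1.69 and 360).

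Stress programmes of other compartments were also lower. Of 16 mitochondrial dysfunction genes, which respond to faults of the respiratory chain, 14 fell and 0 rose (median log2 fold change -1.44). AOX1A, the alternative oxidase that serves as their usual marker, had 52.3, 49.3 and 52.9 CPM on spectinomycin and 119, 85.6 and 122 CPM on control medium (a log2 fold change of -1.08 ± 0.085, adjusted p = 1.99e-10), and CYP81D8 fell further (-4.05 ± 0.10). All 14 low-oxygen core genes fell (median -0.96), with the haemoglobin HB1 at 11.4, 11.9 and 12.1 CPM on spectinomycin and 41.5, 31.6 and 42.9 CPM on control medium (-1.70 ± 0.094). Of 24 genes of the unfolded-protein response of the endoplasmic reticulum 17 fell and 0 rose (median -0.49). The transcription factor BZIP60, which is spliced on this stress, had 38.2, 34.2 and 34.7 CPM on spectinomycin and 74.0, 75.6 and 79.7 CPM on control medium (log2 fold change -1.10 ± 0.057), and the chaperones BIP2 (-0.73 ± 0.047) and CNX1 (-0.77 ± 0.044) fell with it. Of 7 touch and calcium-binding genes 6 fell (median -1.83), with TCH3, a calmodulin-like protein, at 14.3, 15.7 and 15.3 CPM on spectinomycin and 164, 169 and 170 CPM on control medium (-3.47 ± 0.063). Other stress lists lay nearer to the shares over all genes (20.1% rose and 20.4% fell), with 2 rises and 4 falls among 12 cytosolic heat-shock genes and 2 rises and 3 falls among 15 iron deficiency genes. Phosphate starvation genes gave 6 rises and 2 falls among 15, none of them by 2-fold.

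Nitrogen genes held some of the largest falls. Nitrate is taken up, reduced to nitrite by nitrate reductase in the cytosol, and reduced to ammonium by nitrite reductase in plastids. Of 31 genes for these steps and for nitrogen assimilation 21 fell and 6 rose (median log2 fold change -0.52), where 20.4% of all genes fell and 20.1% rose. NIA1 (AT1G77760), a nitrate reductase, had 1.199, 0.915 and 0.537 CPM on spectinomycin and 68.3, 48.7 and 67.7 CPM on control medium, a 70.2-fold lower level (a log2 fold change of -6.13 ± 0.20, adjusted p = 6.22e-18). NIA2, its more abundant partner, had 62.4, 67.5 and 65.0 CPM on spectinomycin and 731, 809 and 732 CPM on control medium (a log2 fold change of -3.54 ± 0.050, adjusted p = 1.82e-41). Both genes for the enzyme were thus lower in every spectinomycin library. NIR1, nitrite reductase, had 41.1, 39.99 and 38.0 CPM on spectinomycin and 89.4, 85.0 and 93.3 CPM on control medium (log2 fold change -1.17 ± 0.056). ASPGB1, an asparaginase, had 3.35, 2.69 and 2.63 CPM on spectinomycin and 155, 132 and 160 CPM on control medium (-5.70 ± 0.091). Transporters went the other way in part. NRT1.5, which loads nitrate into the xylem for the shoot, had 364, 346 and 366 CPM on spectinomycin and 106, 185 and 105 CPM on control medium (a log2 fold change of 1.44 ± 0.14, adjusted p = 1.42e-07, 1.77 without control replicate 2). NRT2.6, a nitrate transporter of the high-affinity family, rose at a low level, with 4.10, 5.21 and 4.35 CPM on spectinomycin and 0.733, 0.401 and 0.998 CPM on control medium (2.71 ± 0.24).

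In root plastids, ferredoxin, its reductase and the pentose phosphate pathway carry electrons to nitrite and sulfite reductases. All 8 genes listed for this chain fell (median log2 fold change -0.41), where 20.4% of all genes fell. SIR, sulfite reductase (-0.52), FD3, the root ferredoxin (-0.45), and RFNR1, a root ferredoxin reductase (-0.29), were among them, while the fall of RFNR2 (-0.17) lost its call without control replicate 3 (-0.15, adjusted p = 0.0673) or without spectinomycin replicate 2 (-0.13, 0.107).

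Photosynthesis genes rose. Of 47 tested nuclear genes of the light reactions 42 rose (20.1% of all genes did) and 1 fell, with a median log2 fold change of 0.67. PSBO2 (AT3G50820), a subunit of the oxygen-evolving complex of photosystem II, had 41.5, 38.6 and 41.4 CPM on spectinomycin and 9.34, 14.7 and 10.6 CPM on control medium (a log2 fold change of 1.80 ± 0.091, adjusted p = 1.77e-19). LHCB2.1, a light-harvesting antenna protein, had 5.24, 6.12 and 4.67 CPM on spectinomycin and 1.10, 3.44 and 1.07 CPM on control medium (log2 fold change 1.46 ± 0.24, 2.29 without control replicate 2). The 1 member that fell was LHCB2.3, a low-level antenna gene, with 0.316, 0.286 and 0.108 CPM on spectinomycin and 1.71, 1.78 and 2.42 CPM on control medium (-3.03 ± 0.36). Of 17 Calvin cycle genes 13 rose and 0 fell (median 0.67), and the groups did not overlap in 9 (45.8% of all genes). Their summed level was 734 to 748 CPM on spectinomycin and 557, 731 and 558 CPM in control replicates 1, 2 and 3. The median gene of this list stood 0.94 log2 units higher in control replicate 2 than in the mean of control replicates 1 and 3. RBCS1A, the main small subunit of Rubisco, had 110, 122 and 115 CPM on spectinomycin and 50.3, 123 and 52.3 CPM on control medium, so that control replicate 2 matched the spectinomycin libraries (log2 fold change 0.61 ± 0.22, 1.17 without it). Its call was lost without control replicate 1 (0.38, adjusted p = 0.181) or 3 (0.41, 0.166) and without any 1 of the spectinomycin libraries (0.0574 to 0.0926). CAB1, an antenna gene, had 143, 126 and 146 CPM on spectinomycin and 40.6, 130 and 39.3 CPM on control medium (0.97 ± 0.29, 1.79 without control replicate 2), and its call was lost without control replicate 1 (0.69, adjusted p = 0.0688) or 3 (0.69, 0.0625). With only the 6 WT libraries in the fit neither RBCS1A (0.59, 0.363) nor CAB1 (0.95, 0.288) was called by the adjusted p. The RBCS and CAB genes have close copies, and reads may be shared among them.

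Summed over the 47 light-reaction genes tested, of 48 listed, the level was 1934 to 1951 CPM on spectinomycin. It was 1013 and 1019 CPM in control replicates 1 and 3 and 1523 CPM in control replicate 2. In control replicate 2 the median light-reaction gene stood 0.59 log2 units above the mean of control replicates 1 and 3. Without that library the median log2 fold change was 0.97, with 45 of 47 genes rising and 1 falling, and that of the Calvin cycle genes was 1.17, with 16 of 17 rising and 1 falling. Markers of shoot epidermis, stomata and leaves summed to 22.1 to 27.6 CPM on spectinomycin and to 25.9, 34.8 and 22.5 CPM in control replicates 1, 2 and 3, with 6 of 13 tested. Of these CER1, a wax synthesis enzyme, rose (1.31). CA1, a carbonic anhydrase (-1.50), was called lower with all libraries but not without control replicate 1 or 2 or spectinomycin replicate 2 or 3 (adjusted p 0.0508 to 0.210), and PDF1, an epidermal gene (-0.33), not without control replicate 1 or 2 or spectinomycin replicate 1 (0.0644 to 0.247). Without control replicate 2, 2 of the 6 rose and 0 fell. The summed levels did not set the spectinomycin libraries apart from control replicates 1 and 3, but were highest in control replicate 2, where root cap markers were lowest (10.6 CPM, against 16.9 and 15.04 CPM in control replicates 1 and 3 and 12.1 to 12.4 CPM on spectinomycin). The part of these markers in the result was not tested.

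**Figure D4:**
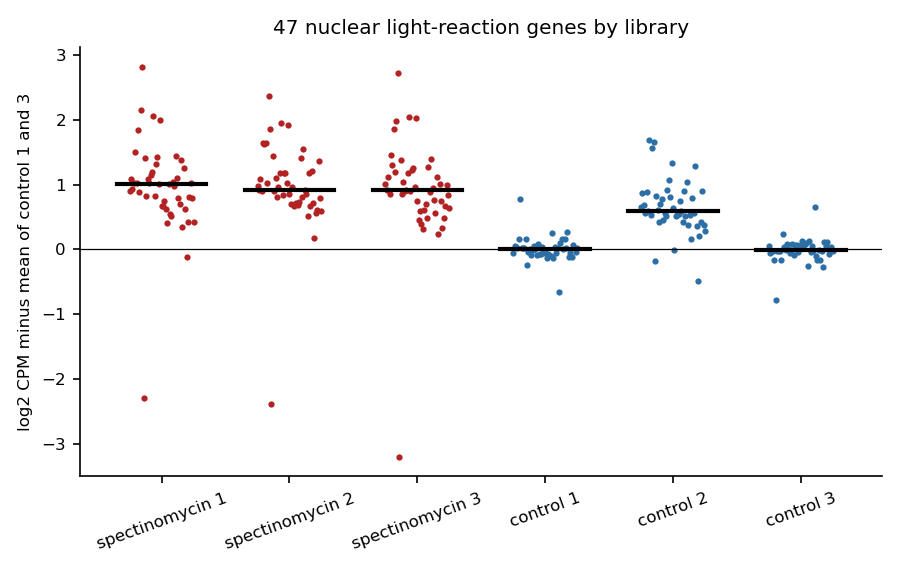
Level of each of 47 nuclear light-reaction genes in each WT library, as log2 CPM minus the mean of control replicates 1 and 3 (y axis), with a bar at the median. The medians were 1.00, 0.92 and 0.92 in the spectinomycin libraries and 0.59 in control replicate 2.

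Smaller shares of other plastid gene groups rose, where 20.1% of all genes rose and 20.4% fell. Of 37 nuclear genes for plastid ribosomal proteins 18 rose, 0 fell and 19 were not called (median log2 fold change 0.22), the largest being emb1473 (0.55), a protein of the large subunit. Among 25 tetrapyrrole synthesis genes, whose products are haem and chlorophyll, 10 rose and 5 fell (median 0.21). The chlorophyll branch accounts for 9 of the rises: PORB, which reduces protochlorophyllide, had 16.1, 15.3 and 14.7 CPM on spectinomycin and 5.56, 8.60 and 6.34 CPM on control medium (1.16 ± 0.10), and GUN5 (0.66) and CHLI1 (0.67) rose with it. HEMA2 (-1.04 ± 0.074) and FC1 (-0.82), which serve haem synthesis in roots and under stress, fell. Of 21 plastid translation factors, chaperones and proteases 8 rose, among them CPN60A (0.50) and CPN20 (0.36), chaperonins that fold imported proteins, and 2 fell, or 1 without control replicate 2. GLK2, an activator of chloroplast genes, rose (0.42 ± 0.084), and its homologue GPRI1 (GLK1) had 2 counts on spectinomycin and 0 on control medium. Transcripts of the plastid genome, seen poorly in poly(A) libraries, held 0.00111 to 0.00138% of counts on spectinomycin and 0.000752 to 0.000961% on control medium, and only 4 of 66 passed the filter, with 0 called.

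The promoters of the photosynthesis genes were searched for the CCAATC element and for the G-box (CACGTG), an element bound by bZIP and bHLH factors, on both strands. CCAATC was found in 38.3% of the 47 light-reaction promoters, in 18.4% of those of genes that rose at least 2-fold and in 12.7% of all. The G-box was found in 31.9%, 12.1% and 8.69% of the same groups. In the 17 Calvin cycle promoters CCAATC was found in 1 (5.88%) and the G-box in 3. LHCB2.1, picked for print after its values were seen, is shown for its 2 CCAATC matches, with first bases at -59 and -4 from the start. It lies on the minus strand of TAIR10.1 at chr2:1824431-1824730 and is written 5′ to 3′ on the gene's strand, with matches in capitals.
LHCB2.1: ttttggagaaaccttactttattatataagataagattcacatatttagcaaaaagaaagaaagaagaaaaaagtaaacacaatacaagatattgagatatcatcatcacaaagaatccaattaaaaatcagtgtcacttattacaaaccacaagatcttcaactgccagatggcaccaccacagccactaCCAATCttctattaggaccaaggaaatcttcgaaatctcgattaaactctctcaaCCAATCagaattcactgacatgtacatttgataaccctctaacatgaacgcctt

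CYP710A2, a sterol C-22 desaturase, led the 15 largest rises (called genes with a symbol, at least 5 CPM and no overlap between groups), with 12.9, 13.96 and 13.6 CPM on spectinomycin and 1.71, 3.44 and 1.496 CPM on control medium (a log2 fold change of 2.57 ± 0.18, adjusted p = 7.21e-15). The thalianol, marneral and arabidiol gene clusters make triterpenes found in roots, and 6 of the 8 cluster genes tested rose, all by at least 2-fold (median 1.17). Over all genes 20.1% rose and 20.4% fell, with 1.06% rising by at least 2-fold. THAS1, thalianol synthase, had 126, 119 and 125 CPM on spectinomycin and 29.1, 34.6 and 29.1 CPM on control medium (1.99 ± 0.058, adjusted p = 1.33e-29). Its neighbours in the pathway CYP708A2 (1.45 ± 0.063) and CYP705A5 (1.44 ± 0.071) rose, as did MRN1, marneral synthase (1.19 ± 0.085), while PEN1 (0.01) and CYP705A1 (0.07) of the arabidiol cluster were not called. HFR1, a bHLH factor of shade responses, had 66.2, 66.3 and 63.5 CPM on spectinomycin and 23.1, 27.7 and 22.3 CPM on control medium (1.42 ± 0.065). VSP2, a vegetative storage protein, rose by 1.68 ± 0.28 with all libraries and by 2.65 without control replicate 2, its levels being 12.5, 15.5 and 14.1 CPM on spectinomycin and 1.89, 8.26 and 2.64 CPM on control medium. JAL22, a jacalin lectin, had 1280, 1213 and 1256 CPM on spectinomycin and 316, 741 and 320 CPM on control medium (1.44 ± 0.21). With only the 6 WT libraries in the fit, the calls of VSP2 (1.66, adjusted p = 0.0776) and JAL22 (1.42, 0.0663) were lost. Of 19 aquaporin genes 11 rose and 2 fell (median 0.47), and PIP1B, an abundant water channel of the plasma membrane, had 2493, 2448 and 2583 CPM on spectinomycin and 1550, 1423 and 1596 CPM on control medium (0.72 ± 0.042).

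Hormone genes gave mixed counts, to be read beside the 20.1% of all genes that rose and the 20.4% that fell. Of 12 ethylene genes 7 fell and 1 rose (median log2 fold change -0.48), and ACS6, an ACC synthase that sets the rate of ethylene production, had 9.79, 7.38 and 9.03 CPM on spectinomycin and 38.8, 41.8 and 37.3 CPM on control medium (-2.18 ± 0.075). The one riser, ERS2 (0.17, adjusted p = 0.0337), lost its call without control replicate 1 (0.221), control replicate 3 (0.0958), spectinomycin replicate 1 (0.0680) or spectinomycin replicate 3 (0.102), while without control replicate 2 the list had 3 rises. Of 19 auxin genes 11 fell and 4 rose, the rises near the share over all genes (median -0.58, or -0.34 without control replicate 2). BRU6 (GH3.2), which conjugates auxin to amino acids, had 23.4, 21.6 and 20.3 CPM on spectinomycin and 336, 295 and 326 CPM on control medium (-3.88 ± 0.060), while the transporters PIN7 (0.30) and AUX1 (0.30) rose. Of 8 type-A response regulators, early targets of cytokinin, 6 rose (median 0.38), among them ARR6 (0.78 ± 0.074) and ARR9 (0.71 ± 0.060), and ARR7 fell (-0.45), a call lost without control replicate 2 (-0.36, adjusted p = 0.141), spectinomycin replicate 2 (-0.46, 0.0568) or spectinomycin replicate 3 (-0.36, 0.136). Of 13 jasmonate genes 6 fell and 1 rose, with the repressor gene JAZ1 at -1.65 ± 0.055. Of 10 abscisic acid and cold dehydration genes 5 rose and 0 fell, with LTI78 at 55.4, 49.3 and 53.4 CPM on spectinomycin and 23.6, 24.1 and 21.9 CPM on control medium (1.18 ± 0.069). Its synthesis gene NCED3 also rose (1.00 ± 0.13).

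Few cell cycle genes were called. Of 18 genes of the G2 and M phases and 12 of S phase, 1 in each list rose and 0 fell, with medians of 0.10 and 0.14, and without control replicate 2 there was 1 fall in the S phase list. The riser of the G2 and M list, CYCB1;4 (0.35), lost its call without spectinomycin replicate 2 or 3, and MCM4, the riser of the S phase list (0.25), without control replicate 1 or 3 or spectinomycin replicate 1 or 3, with adjusted p between 0.0501 and 0.203. Of 9 stem cell niche markers 2 rose and 2 fell, close to the 20.1% and 20.4% over all genes, with JKD, which confines SHR movement, at 32.1, 37.3 and 37.8 CPM on spectinomycin and 54.0, 54.6 and 55.6 CPM on control medium (-0.61 ± 0.062). Casparian strip gene CASP2 fell (-0.42 ± 0.090), and of the 8 endodermis markers 1 rose and 2 fell, again near those shares. Without control replicate 2, 0 rose and 3 fell. Root hair markers gave 2 falls among 8, of which CSLD3, a cellulose-synthase-like enzyme of tip growth, was the larger (-0.41). Without control replicate 2, 4 of them fell, and their summed level was 473 to 550 CPM on spectinomycin, against 636, 436 and 641 CPM in control replicates 1, 2 and 3. The calls of SHR, BBM, FEZ, CASP1, CASP5 and RHD6 in these lists were each lost when 1 library was left out, at adjusted p between 0.0514 and 0.118. Expansins of the alpha family, which loosen cell walls, gave 6 rises among 14 and 0 falls (median 0.25). Xyloglucan transglucosylases gave 5 rises, near the 20.1% over all genes, and 9 falls among 24, with XTH18 at -2.89 ± 0.16. Of 12 clock genes 4 rose and 0 fell, with CCA1, a morning-phase gene, at 3.03, 3.15 and 3.98 CPM on spectinomycin and 0.855, 2.64 and 1.57 CPM on control medium (0.99 ± 0.24).

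**Figure D5:**
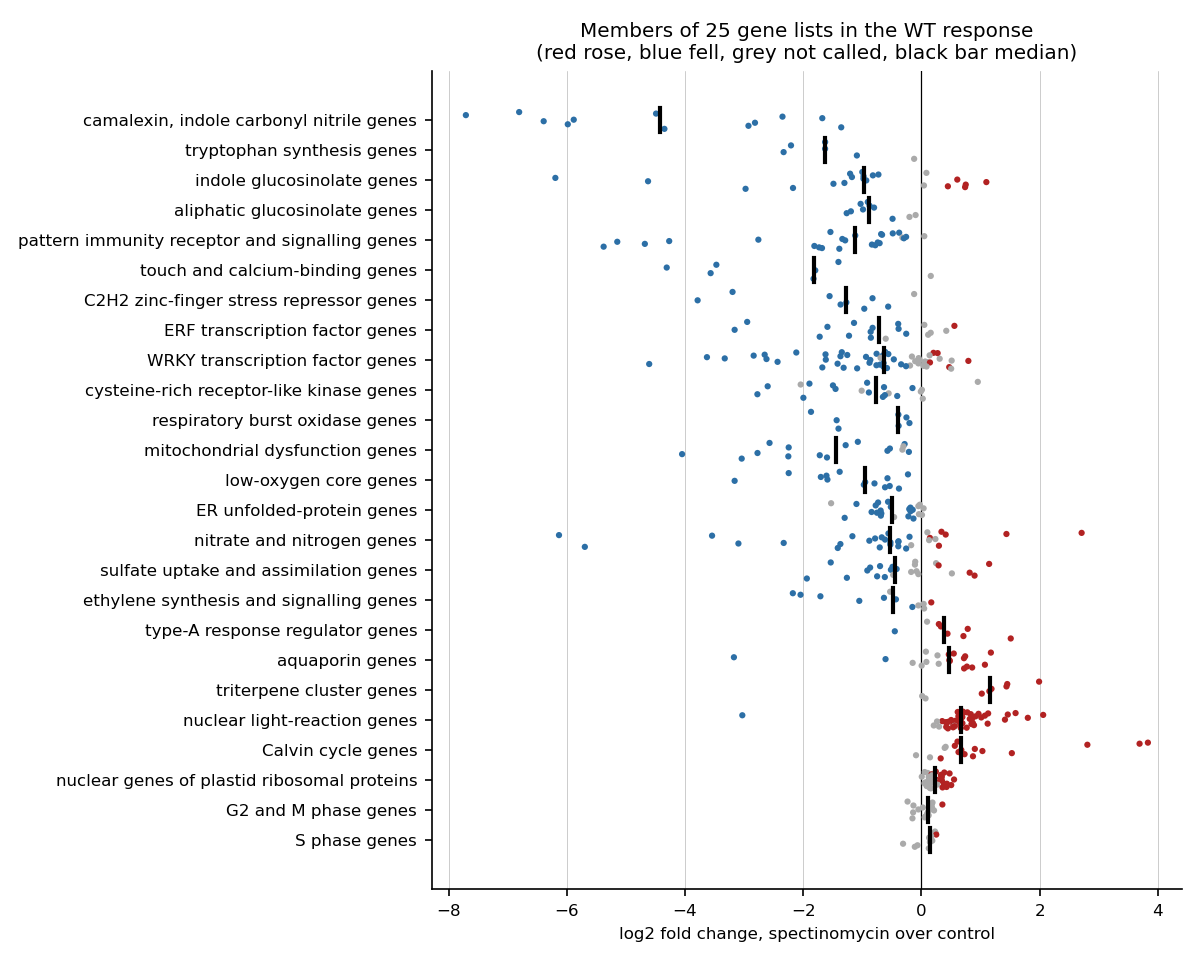
Log2 fold change (spectinomycin over control, x axis) of each tested member of 25 gene lists, 1 row per list. Red members rose, blue members fell, grey members were not called, and black bars mark medians, which run from -4.42 for the camalexin and carbonyl nitrile genes to 1.17 for the triterpene cluster genes.

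The WT response was then set against the mean response of the other 3 genotypes in the same fit. It was higher than theirs for 11.3% of genes and lower for 13.1%. For 527 genes it was lower by at least 2-fold, and 520 of these had fallen in WT. For 78 genes it was higher by at least 2-fold, and 70 of these had risen in WT. Without WT control replicate 2, 184 genes were higher and 574 lower by at least 2-fold. The median log2 fold change of the 892 genes that fell at least 2-fold in WT was -1.72 in WT, by choice of the genes, -0.24 in gun1-101, -1.25 in nac103-11 and -0.04 in NAC103-OX. The 208 genes that rose at least 2-fold had medians of 1.27 in WT, again by choice, 0.24 in gun1-101, 1.28 in nac103-11 and -0.03 in NAC103-OX. By these values the nac103-11 response was the nearest to that of WT for both sets.

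Levels on either medium placed the genotypes further. The 892 genes had a median level of 4.17 CPM in WT on spectinomycin and 16.1 CPM in WT on control medium. In gun1-101 it was 34.4 CPM on spectinomycin and 41.6 CPM on control medium, in nac103-11 9.90 and 26.1 CPM, and in NAC103-OX 3.99 and 4.23 CPM. These genes were thus low in NAC103-OX with and without the drug, at about the level of WT on spectinomycin, and high in gun1-101 with and without it. CYP71A12 averaged 4.95 ± 0.0751 CPM in WT on spectinomycin and 555 ± 43.4 CPM in WT on control medium (SD, n = 3 each). Its means were 1935 CPM on spectinomycin and 2070 CPM on control medium in gun1-101, 138 and 613 CPM in nac103-11, and 2.99 and 5.22 CPM in NAC103-OX. NIA2 averaged 65.0 CPM in WT on spectinomycin and 757 CPM in WT on control medium, 873 and 625 CPM in gun1-101, 107 and 680 CPM in nac103-11, and 38.4 and 34.8 CPM in NAC103-OX. PSBO2 averaged 40.5 CPM in WT on spectinomycin and 11.5 CPM in WT on control medium, 22.5 and 13.7 CPM in gun1-101, 28.1 and 10.1 CPM in nac103-11, and 49.5 and 59.7 CPM in NAC103-OX. The difference between the WT response and the mean of the others was -5.79 ± 0.10 for CYP71A12 (adjusted p = 2.53e-37), -2.86 ± 0.056 for NIA2 (1.11e-35) and 1.16 ± 0.11 for PSBO2 (2.85e-11). CYP71A12 and PSBO2 were among the genes picked for the size of this difference.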

How the data were processed

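Poly(A) RNA was captured with oligo(dT) beads per the labels' protocols, and expression was estimated with RSEM 1.3.1 per the submitters' processing notes. The aligner, genome build and annotation are not given in the sources used here. The deposited expected counts of 24497 genes (98.27% whole within 1e-9) were rounded. The authors' TPM values served only to compare levels between genes. A further 98 value columns were not used. Gene IDs were paired with RefSeq symbols for 24424 genes, and 73 IDs found no match.

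The 19567 genes kept by edgeR's filterByExpr (minimum count 10, total 15) were fitted with edgeR 4.0.16 (R 4.3.3) by the robust quasi-likelihood method with TMM scaling, over all 24 libraries with 1 mean per group (common biological coefficient of variation 0.0466, 16 residual degrees of freedom). A gene was called at a Benjamini-Hochberg adjusted p under 0.05. Standard errors are the log2 fold change divided by the root of F. DESeq2 1.42.0 was an alternative. In a test on simulated data of 19377 genes for the WT response, 17, 43, 49 and 50 of 50 genes were recovered at 1.2, 1.5, 2 and 4-fold, with 8 false calls. For the WT response minus the mean of the others, 7, 40, 48 and 50 of 50 were recovered. The simulation gave each gene 1 level over all groups. It changed few genes, evenly in both directions and in WT on spectinomycin only. It held no genotype differences, no library set apart like control replicate 2 and no lopsided response. These figures thus give no error rate for the calls in the data. P-values measure the spread between these libraries only, and intervals cover counting error only.

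Genes were named by rule, as the 15 largest rises and falls at 5 CPM or more without overlap, the 4 members with the smallest p in each direction of each of 54 gene lists, all members of lists of up to 14, and the 8 largest differences in each direction between the WT response and the mean of the others. AT1G26380, AT3G13610, AT5G39580, AOX1A, BAK1, CAB1, CERK1, EFR, LYK5, PEN2, PEPR2, PYK10 and RBCS1A were chosen after their values were seen, as were the genes in the closing observations. Members and lists were chosen with earlier results of these data known.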

Additional observations from a re-analysis of the deposited data

Results flagged for a closer look

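For 16 genes named by rule the WT response differed from the mean response of gun1-101, nac103-11 and NAC103-OX by edgeR's quasi-likelihood test of the difference itself. They were picked as the 8 largest differences in each direction among genes called in that test. Their passing it was thus set by the choice, and their adjusted p add no evidence. Differences are on the log2 scale, WT minus the mean of the others, and a negative one means a deeper fall in WT. They were -6.38 for PER4, -5.79 for CYP71A12, -5.25 for CYP81F2, -5.31 for NIA1, -5.05 for GSTU12, -4.35 for CYP82C2, -4.42 for ASPGB1 and -4.55 for PXMT1, with adjusted p of at most 1.90e-05. In each of these 8 genes the fall in nac103-11 was smaller than in WT, from -1.88 for PXMT1 to -3.84 for NIA1. All 8 were among the 92 genes that fell at least 16-fold in WT. On control medium those 92 had a median level of 0.151 CPM in NAC103-OX and 5.08 CPM in WT. Genes that low had little room to fall in NAC103-OX.

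On the other side the differences were 2.21 for NRT1.8, 1.199 for HFR1, 1.19 for TPS12, 1.18 for SFP2, 1.16 for PSBO2, 1.15 for HA4, 1.14 for PYD4 and 1.14 for EXPB3, with adjusted p of at most 0.00150. NRT1.8, a nitrate transporter that takes nitrate out of the xylem, averaged 14.1 CPM in WT on spectinomycin and 10.6 CPM in WT on control medium. Its means were 21.8 CPM on spectinomycin and 80.2 CPM on control medium in gun1-101, 19.4 and 230.4 CPM in nac103-11, and 16.5 and 15.9 CPM in NAC103-OX, so that the genotypes differed more in their control levels than in their spectinomycin levels. For HA4, a plasma membrane proton pump, WT and nac103-11 also differed more on control medium than on spectinomycin. Its means were 15.7 CPM in WT on spectinomycin and 9.09 CPM in WT on control medium, against 21.3 and 40.2 CPM in nac103-11. Its levels in gun1-101 and NAC103-OX are not given here. The rise of PYD4 in WT (0.76) lost its call with only the 6 WT libraries in the fit (0.74, adjusted p = 0.230). SFP2, a sugar transporter-like gene, rose in WT by 1.301 with all libraries and by 1.97 without control replicate 2.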

How the results depend on the processing

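Of 392 results for named genes, 258 kept their direction and side of the threshold under every alternative that gave them a value (7 had none with the 6 WT libraries alone), as did 200 of the 293 called, and none changed sign with a call. Against a fold of 1.2 (glmTreat), 1194 genes rose and 2039 fell, with the 6 WT libraries alone 2559 rose, and with raw library sizes 6542 rose (3939 and 4001 in the fit reported). DESeq2 gave 2796 rises and 4020 falls, and 51 genes whose WT response was higher than the mean of the others by at least 2-fold, against 78. Leaving out 1 library gave 3274 to 4054 rises, 3615 to 4101 falls, 199 to 351 rises and 887 to 922 falls of at least 2-fold. For the WT response against the others it gave 1757 to 2699 genes higher and 2219 to 2932 lower, and 61 to 184 higher and 506 to 574 lower by at least 2-fold. The highest values of both counts of 2-fold rises came without control replicate 2, and the cause was not tested. List medians near 0 changed sign in 6 lists, the largest shift being that of the shoot, stomata and leaf markers, at 0.23 without control replicate 2 and -0.13 with it. The replicate numbers did not pair the libraries (correlations of deviations -0.019, -0.031 and -0.012), and with the replicate block 3966 genes rose and 4019 fell, 212 and 890 by at least 2-fold. Depth limits genes under a few counts per library. Intervals or bounds are given only for some genes with at most 3 counts over a group.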

Other observations

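Genes with very few counts gave wide ranges. RBCS2B, a small subunit gene of Rubisco with close copies, had 33 counts over the 3 spectinomycin libraries and 2 over the 3 control libraries, a level 15.2-fold higher on spectinomycin (exact 95% interval 3.89 to 131, counting error only). WRKY55 had 2 counts on spectinomycin and 22 on control medium, a level 11.9-fold higher on control medium (2.94 to 104.7), and WRKY59 had 0 on spectinomycin and 9 on control medium, at least 3.26-fold higher on control medium against a floor of 3 counts over the group.

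NIP2;1, an aquaporin-family channel induced by low oxygen, had 0.442, 0.515 and 0.269 CPM on spectinomycin and 4.46, 2.18 and 4.70 CPM on control medium (log2 fold change -3.17 ± 0.31), while the aquaporin list had a median of 0.47. ERF71, a low-oxygen ERF factor, had 0.379, 0.172 and 0.269 CPM on spectinomycin and 3.17, 1.38 and 2.99 CPM on control medium (-3.16 ± 0.35). In both genes control replicate 2 was the lowest control library. GH3.3, an auxin-conjugating enzyme like BRU6, had 5.11, 6.01 and 5.37 CPM on spectinomycin and 23.4, 29.6 and 22.2 CPM on control medium (-2.19 ± 0.11).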
